A study of Rattus norvegicus with 6 samples.

Results

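The genes of cholesterol, fatty acid and phospholipid synthesis were followed in a rat insulinoma line, INS-1, that carries a doxycycline-inducible gene for a fusion of GFP to a misfolding mutant of proinsulin, Insulin 2 C96Y. The list held 42 genes chosen by name with earlier results of these data known, so its shares beside all genes are description only. A gene was measured where at least 1 probeset (a set of oligonucleotides on the array that reads 1 transcript) carried that gene's symbol and no other. This left 40 of the 42 genes, out of 12603 genes measured in all. They comprised 16 of 17 enzymes of sterol synthesis, 6 of 6 sterol regulators, 11 of 12 fatty acid genes and 7 of 7 phospholipid genes, while Hmgcs1 and Scd were not analysed here. RNA was hybridized to 6 Affymetrix arrays, 2 in each of 3 groups, from 2 independent experiments. Arrays with the same replicate number in the labels were taken as 1 experiment, which the labels do not state. In the Dox+4μ8c group the cells received doxycycline (Dox, 4 μg/ml per the labels, a lower dose per the study's methods) together with 5 μM 4μ8c, which blocks the endoribonuclease activity of the endoplasmic reticulum (ER) stress sensor IRE1. The Dox group received doxycycline without the inhibitor, the untreated group received neither, and all were harvested at 48 h. Cells of every group belong to 1 clone, #4S2, and carry the same inducible gene. A response to mutant proinsulin therefore cannot be told apart from a response to doxycycline itself, and arrays of 4μ8c alone were not analysed here.

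Sterol and fatty acid synthesis genes are largely driven by the SREBP transcription factors, which are made as precursors in the ER membrane. SCAP escorts these precursors to the Golgi for cleavage when ER cholesterol is low, and the INSIG proteins hold them in the ER when cholesterol is high. Phospholipids, phosphatidylcholine above all, are made in the same membrane by a separate pathway, whose expansion accompanies growth of the ER in secretory cells and has been tied to the IRE1 product XBP1.

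The deposited values are log2 signals from which a level had been subtracted for each probeset, so a value of 0 does not mark an absent transcript. A member's values can be compared between the groups of 1 experiment, but not between experiments or between genes. In experiment 1 the median of the 3 arrays was 0 for 100% of probesets, against 0.836% in experiment 2, so the level subtracted was set differently. What it was in experiment 2 is not known from these arrays. In experiment 1, 25.463% of probesets held the same value on all 3 arrays, against 0.004% in experiment 2. Of the 66 probesets of the members, 3 were equal on all 3 arrays of experiment 1, and 18 were at 0 on 2 of them. Differences in experiment 1 were therefore often small or exactly 0, and the cause of these equal values was not tested. The SD over probesets ranged over the arrays from 0.0502 in the Dox+4μ8c array to 0.176 in the Dox array, the first from experiment 1 and the second from experiment 2. All 8 beta-cell markers were measured, but with the levels removed their presence could not be judged. Mafa, a beta-cell transcription factor, had a log2 change of 0.62 for Dox+4μ8c against Dox and of -0.56 for Dox against untreated (adjusted p = 0.0189 and 0.009, limma). Iapp, the amylin gene, was the other beta-cell marker past the test, with -0.25 for Dox against untreated (adjusted p = 0.0408). Of 15 markers of alpha, delta, acinar and liver cells and fibroblasts, 8 were measured, and Gcg, the glucagon gene, was the 1 that passed the test. Its log2 changes were -1.36 for Dox+4μ8c and -2.22 for Dox, each against untreated cells (adjusted p = 0.00609 and 0.000721, limma). For Dox+4μ8c against Dox its change was 0.86 (adjusted p = 0.021, limma). In such bulk RNA, fewer cells of a type and less RNA per cell cannot be told apart, and the part of these marker shifts in the lipid results was not tested.

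In Dox+4μ8c cells 34 of the 40 lipid synthesis genes had a mean below that of untreated cells (85%, against 50.92% of all genes), and those that passed the test were sterol and fatty acid genes. Of the 40 members, 5 fell and none rose at an adjusted p under 0.05 (limma with the experiment as a block, Benjamini-Hochberg over all genes). The background among all genes was 1.13% lower and 1.17% higher. The 5 were the sterol enzymes Idi1, Tm7sf2 and Ebp and the fatty acid genes Fads2 and Acsl3, at 0.708 to 0.754 times the untreated level. At an unadjusted p under 0.05, 21 members were lower and 1 was higher, with backgrounds of 9.15% and 6.27% of all genes. Regardless of the test, 28 of the 40 members (70%) were lower in both experiments, against 28.9% of all genes. In experiment 1, 3439 of the 12603 genes but only 3 of the 40 members had the same value in Dox+4μ8c and untreated cells. Those genes could not count as lower in both, which holds down the share of all genes more than that of the members. Equal values also bear on the other counts over both experiments. The median log2 change was -0.23 over the sterol enzymes, -0.16 over the sterol regulators and -0.27 over the fatty acid genes, against 0.032 over the phospholipid genes and -0.0018 over all genes. The 5 calls rest on few arrays. Without either Dox+4μ8c array or either untreated array, 0 members passed the test (limma), with 10 to 24 lower at an unadjusted p under 0.05. The fit with no block for the experiment also gave 0 members, with 22 lower at an unadjusted p under 0.05, and 0 of all genes. Leaving out either Dox array, which enters this comparison only through the estimate of the spread, gave 17 members lower, with a background of 3.13%.

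**Figure D1:**
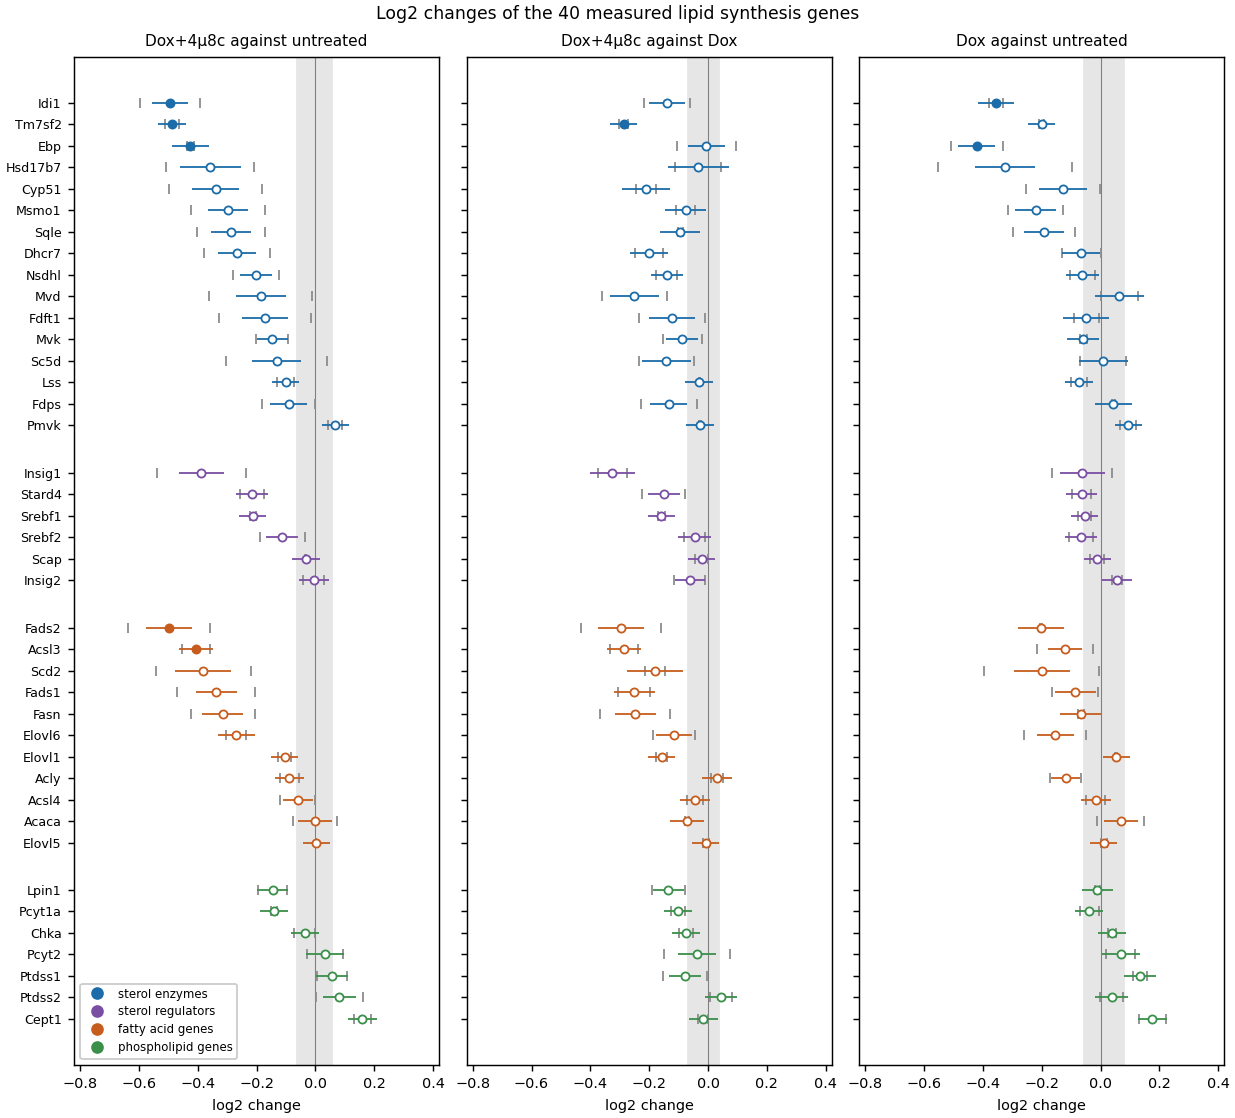
Log2 change (x axis) of each of the 40 measured members (y axis, ordered within 4 groups) for Dox+4μ8c against untreated, Dox+4μ8c against Dox, and Dox against untreated; circles are the mean of 2 experiments with the standard error, filled where the adjusted p was under 0.05, grey ticks are the experiments, and the grey band holds the middle 50% of all 12603 genes. In the left panel 15 of the 16 sterol enzymes lie below 0, with Idi1 lowest at -0.50, whereas the 7 phospholipid genes lie on both sides of it.

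In Dox cells 27 of the 40 members (67.5%, against 45.1% of all genes) had a mean below that of untreated cells. Idi1 and Ebp fell and no member rose, against backgrounds of 2.01% lower and 4.42% higher over all genes. At an unadjusted p under 0.05, 8 members were lower and 2 were higher, with backgrounds of 8.44% and 11.2%, and 23 of 40 (57.5%) were lower in both experiments, against 24.8% of all genes. The median change was -0.069 for sterol enzymes, -0.059 for sterol regulators, -0.087 for fatty acid genes and 0.039 for phospholipid genes, with 0.011 over all genes. Between Dox+4μ8c and Dox cells, Tm7sf2 was lower and no member was higher, with backgrounds of 1.61% and 0.175%, while 14 members were lower and 0 were higher at an unadjusted p under 0.05, with backgrounds of 8.44% and 2.79%. All 16 sterol enzymes had a mean below 0 in this comparison, as did 57.95% of all genes, and 32 of the 40 members (80%) were lower with the inhibitor in both experiments, against 26.9% of all genes. Medians were -0.13 for sterol enzymes, -0.11 for sterol regulators, -0.16 for fatty acid genes and -0.076 for phospholipid genes, and -0.014 over all genes. Without the Dox+4μ8c array of experiment 2 they were -0.035, -0.056, -0.13 and -0.022 in the same order. Without that of experiment 1 the sterol enzymes were at -0.21, without the Dox array of experiment 1 the fatty acid genes were at -0.067, and without that of experiment 2 the phospholipid genes were at -0.031. The 3 comparisons share arrays, so their counts are not independent of each other. The call of Tm7sf2 in the last comparison was lost with any array left out except Dox of experiment 1, without which Tm7sf2 and Acsl3 passed, with a background of 4.6% lower, so that this count of 2 lay near the background. After quantile normalization 0 members passed against Dox or for Dox against untreated (16 and 8 lower at an unadjusted p under 0.05), and leaving out the untreated array of experiment 2 also left 0 for the second of these (4 unadjusted), while 1 (Hsd17b7) passed without that of experiment 1 and 4 without the Dox array of experiment 1, with backgrounds of 0.492% and 5.2% lower. With no block for the experiment the Dox call of Ebp was lost (adjusted p = 0.0541) and that of Idi1 was kept.

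**Figure D2:**
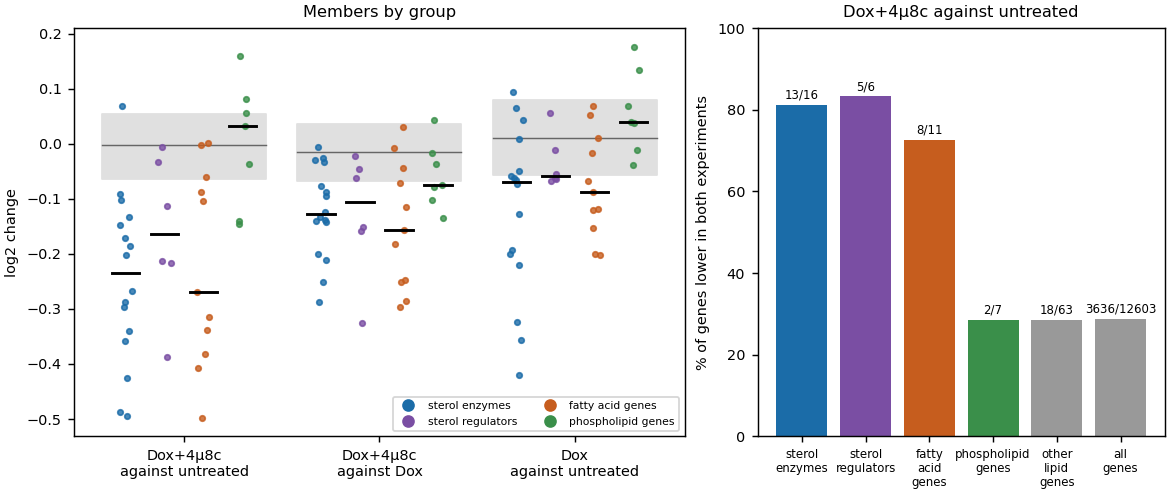
Left, log2 change (y axis) of every member by group for the 3 comparisons (x axis), with each group's median as a black bar and the middle 50% of all genes and their median in grey; right, the percentage of genes lower in both experiments in Dox+4μ8c cells than in untreated cells (y axis), with the counts above the bars. The bars of the sterol enzymes (13 of 16), sterol regulators (5 of 6) and fatty acid genes (8 of 11) stand above those of the phospholipid genes (2 of 7), the other lipid genes (18 of 63) and all genes.

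Sterol genes are textbook targets of SREBP acting with NF-Y. The promoters shown are those of the 5 members that passed the test in Dox+4μ8c cells against untreated cells. Each runs 5′ to 3′ in the direction of the gene, from 250 bases before to 50 bases after the annotated start (RefSeq, GRCr8), with the NF-Y box CCAAT, or ATTGG where it lies on the other strand, in capitals. The last 50 bases lie inside the transcript.
Idi1 promoter (GRCr8 chr17:66547475-66547774, minus strand): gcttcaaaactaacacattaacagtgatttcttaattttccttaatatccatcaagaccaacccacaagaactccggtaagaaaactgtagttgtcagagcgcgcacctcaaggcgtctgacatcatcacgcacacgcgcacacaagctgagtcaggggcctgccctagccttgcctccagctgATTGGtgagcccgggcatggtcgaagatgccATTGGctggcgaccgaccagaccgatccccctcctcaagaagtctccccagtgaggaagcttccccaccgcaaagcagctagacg
Tm7sf2 promoter (GRCr8 chr1:212789492-212789791, minus strand): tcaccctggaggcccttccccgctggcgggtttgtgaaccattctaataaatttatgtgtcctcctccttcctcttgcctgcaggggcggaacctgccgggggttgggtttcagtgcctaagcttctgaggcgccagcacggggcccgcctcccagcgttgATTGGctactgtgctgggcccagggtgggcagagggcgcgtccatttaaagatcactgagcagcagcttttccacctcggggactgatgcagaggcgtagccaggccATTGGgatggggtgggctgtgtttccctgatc
Ebp promoter (GRCr8 chrX:16971212-16971511, plus strand): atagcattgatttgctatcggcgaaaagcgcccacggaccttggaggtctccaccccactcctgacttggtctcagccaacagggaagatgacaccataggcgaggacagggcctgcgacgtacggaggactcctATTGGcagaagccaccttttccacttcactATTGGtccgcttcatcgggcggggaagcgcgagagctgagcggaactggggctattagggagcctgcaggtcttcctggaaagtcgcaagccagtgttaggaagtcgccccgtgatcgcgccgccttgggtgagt
Fads2 promoter (GRCr8 chr1:216171984-216172283, minus strand): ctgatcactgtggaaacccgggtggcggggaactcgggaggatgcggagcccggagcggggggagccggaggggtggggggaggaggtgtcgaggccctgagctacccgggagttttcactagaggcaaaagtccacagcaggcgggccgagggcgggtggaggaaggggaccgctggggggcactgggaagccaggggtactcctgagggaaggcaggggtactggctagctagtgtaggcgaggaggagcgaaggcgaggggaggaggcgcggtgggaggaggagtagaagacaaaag
Acsl3 promoter (GRCr8 chr9:87563351-87563650, plus strand): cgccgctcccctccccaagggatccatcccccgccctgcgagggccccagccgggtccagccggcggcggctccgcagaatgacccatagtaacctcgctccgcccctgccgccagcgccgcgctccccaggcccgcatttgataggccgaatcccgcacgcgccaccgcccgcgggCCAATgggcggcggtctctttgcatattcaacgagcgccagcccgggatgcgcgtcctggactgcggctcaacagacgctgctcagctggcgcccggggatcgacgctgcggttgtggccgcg
Counted from the start, the box began at bases -66 and -35 in Idi1, -89 and 19 in Tm7sf2, -115 and -85 in Ebp and -73 in Acsl3, and these letters were not in the Fads2 window. A promoter was found for 32 of the 40 members, and 23 of them (71.88%) held an NF-Y box on either strand, against 37.52% of the 10430 measured genes with a promoter and 37.49% of all 33469 promoters in the table. By group the box was in 11 of 13 sterol enzymes, 4 of 5 sterol regulators, 5 of 8 fatty acid genes and 3 of 6 phospholipid genes. Mvk and Nsdhl had 5 copies each. The SREBP core TCACNCCAC, searched on both strands, was in 1 of the 32, the phospholipid gene Pcyt1a (3.12%, against 1.09% of measured genes), so these letters were in none of the 5 windows shown. The E-box CACGTG was in 4 of the 32 (12.5%, against 9.28%), and neither the XBP1-type core TGACGTGG nor the ATF4-type core TTGCATCA was in any, against 0.86% and 0.56%. No motif contained another, and these matches describe the letters only.

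Sterol enzymes carry acetyl-CoA units by way of mevalonate, isopentenyl diphosphate and squalene to lanosterol and then to cholesterol. In the early part of the route Idi1, which isomerizes isopentenyl diphosphate, was measured at -0.060 and -0.24 in Dox+4μ8c cells, 0 and -0.021 in Dox cells and 0.33 and 0.36 in untreated cells (centred log2 value, experiments 1 and 2 in that order, as for every gene below). In each experiment Dox+4μ8c was lowest and untreated highest, with Dox nearer to Dox+4μ8c. Idi1 fell by 0.50 ± 0.062 with Dox+4μ8c (standard error of the fit, adjusted p = 0.0207) and by 0.36 ± 0.062 with Dox (adjusted p = 0.0262, limma). Its 2 probesets gave -0.53 and -0.46 for the first of these. Mvd, the decarboxylase that yields isopentenyl diphosphate, stood at -0.010 and -0.18 in Dox+4μ8c cells, 0.13 and 0.18 in Dox cells and 0 and 0.18 in untreated cells, so that Dox+4μ8c was lowest in both experiments but Dox was level with untreated cells in the second. Its change of -0.25 ± 0.084 against Dox did not pass the test (adjusted p = 0.31). Among the other early enzymes, the kinase Mvk had a change of -0.15 against untreated cells, with 1 of its 3 probesets, at 0.079, opposite to the others at -0.27 and -0.25, and the next kinase, Pmvk, was the 1 sterol enzyme with a mean above 0 (0.068). The prenyl synthase Fdps and the squalene synthase Fdft1 had changes of -0.091 and -0.17.

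Sqle, the epoxidase that commits squalene to sterols and a rate-limiting enzyme of the pathway, was at -0.086 and -0.15 in Dox+4μ8c cells, 0 and -0.049 in Dox cells and 0.087 and 0.25 in untreated cells. Dox+4μ8c lay below Dox and Dox below untreated in each experiment, yet its change of -0.29 ± 0.068 with Dox+4μ8c missed the threshold (adjusted p = 0.103, limma). Tm7sf2, a sterol C14 reductase acting after lanosterol, gave the lowest adjusted p of the members. Its values were -0.27 and -0.25 in Dox+4μ8c cells, 0 and 0.049 in Dox cells and 0.19 and 0.26 in untreated cells, and the same order of the 3 groups held in both experiments. It fell by 0.49 ± 0.046 in Dox+4μ8c cells against untreated cells (adjusted p = 0.00887) and by 0.29 ± 0.046 against Dox cells (adjusted p = 0.0432), while Dox against untreated gave -0.20 ± 0.046 (adjusted p = 0.0616). Ebp, the sterol isomerase that moves the double bond of the B ring, showed another pattern, at 0 and -0.19 in Dox+4μ8c cells, -0.095 and -0.086 in Dox cells and 0.41 and 0.25 in untreated cells. The untreated array was highest in each experiment, while Dox+4μ8c lay above Dox in experiment 1 and below it in experiment 2. Ebp fell by 0.43 ± 0.063 with Dox+4μ8c and by 0.42 ± 0.063 with Dox (adjusted p = 0.0312 and 0.0156), and differed by -0.0053 ± 0.063 between the treated groups.

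**Figure D3:**
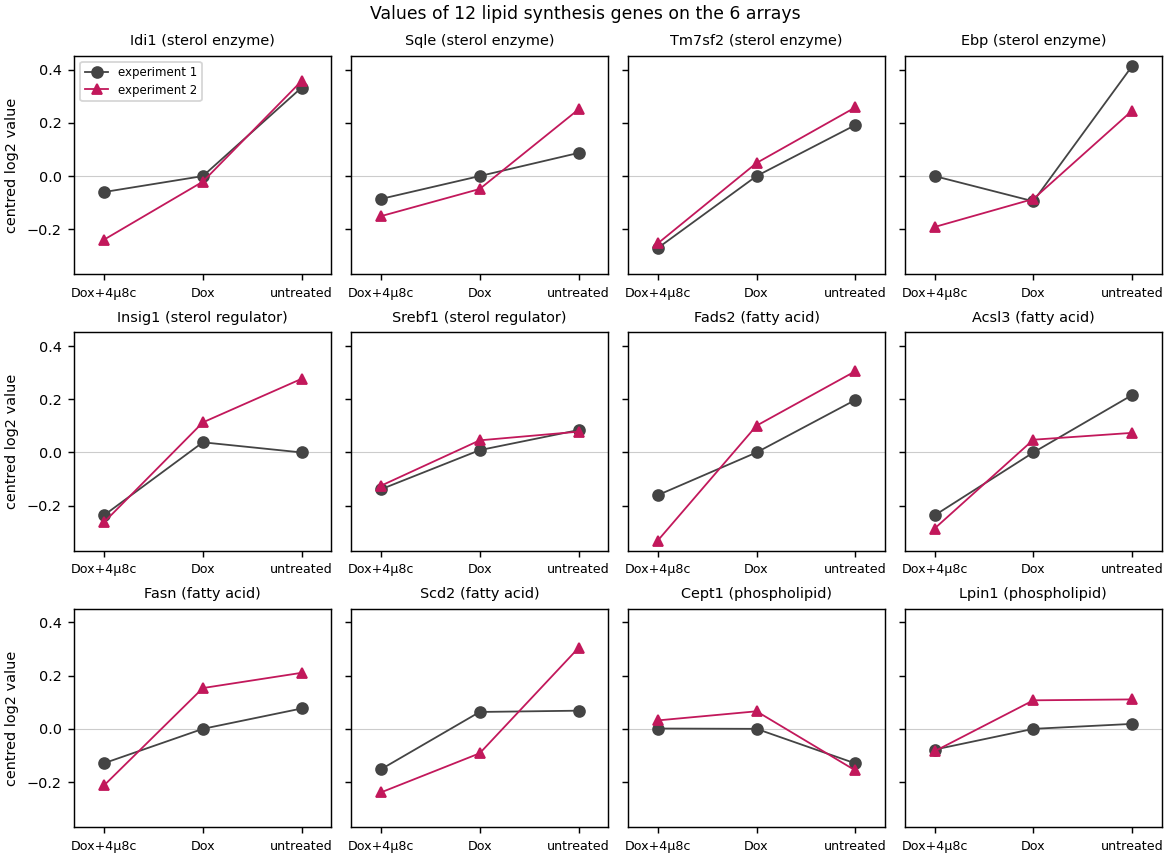
Centred log2 values (y axis) of 12 members on the 6 arrays, by group (x axis) and joined within each experiment (circles, experiment 1; triangles, experiment 2); each point is 1 array, so no error bar is drawn. Tm7sf2 and Fads2 are lowest with Dox+4μ8c, intermediate with Dox and highest in untreated cells in both experiments, Ebp is highest and Cept1 lowest in the untreated array of each experiment.

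The other enzymes downstream of squalene were below 0 on average and none passed the test. Changes within the experiments, for Dox+4μ8c against untreated, were -0.18 and -0.50 for the lanosterol demethylase Cyp51, -0.17 and -0.42 for the methyl oxidase Msmo1, -0.21 and -0.51 for the ketoreductase Hsd17b7 and -0.15 and -0.38 for Dhcr7, which makes cholesterol itself. All 4 were lower in both experiments, each by more in experiment 2, with adjusted p from 0.0981 to 0.159. Nsdhl, which removes the C4 carboxyl group, had -0.20 ± 0.055, but its probesets differed, at -0.35 and -0.058. Lss, the lanosterol synthase, was at -0.10, and the desaturase Sc5d was slightly higher in experiment 1 and lower in experiment 2 (0.040 and -0.30).

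None of the 6 sterol regulators passed the test in any comparison (limma). At an unadjusted p under 0.05, 3 were lower in Dox+4μ8c cells than in untreated cells, 3 were lower than in Dox cells, and 0 differed between Dox and untreated cells. Over all genes the shares lower were 9.15%, 8.44% and 8.44% in the same order, and 11.2% were higher with Dox against untreated. Insig1, the ER anchor that is itself induced by SREBP, had the largest change of the group and was at -0.24 and -0.26 in Dox+4μ8c cells, 0.038 and 0.11 in Dox cells and 0 and 0.28 in untreated cells. Dox+4μ8c was lowest in each experiment, whereas Dox lay above untreated in experiment 1 and below it in experiment 2. Against untreated cells the change was -0.39 ± 0.077 (adjusted p = 0.0668), and against Dox cells it was -0.33 ± 0.077 (adjusted p = 0.132, limma). Its paralogue Insig2 had -0.0053 against untreated cells. Srebf1, which encodes the SREBP mainly tied to fatty acid synthesis, was at -0.14 and -0.13 in Dox+4μ8c cells, 0.0087 and 0.046 in Dox cells and 0.084 and 0.078 in untreated cells. Its groups were ordered alike in both experiments, with a change of -0.21 ± 0.046 for Dox+4μ8c against untreated that missed the threshold (adjusted p = 0.0835) and 2 probesets that differed, at -0.38 and -0.051. Srebf2, encoding the SREBP mainly tied to sterols, had -0.0092 and -0.067 in Dox+4μ8c cells, 0 and 0.016 in Dox cells and 0.026 and 0.12 in untreated cells and a smaller change of -0.11 ± 0.055 (adjusted p = 0.41). Stard4, an intracellular sterol carrier, was at -0.078 and -0.16 in Dox+4μ8c cells, 0 and 0.059 in Dox cells and 0.097 and 0.091 in untreated cells, in that order from low to high in each experiment, with -0.22 ± 0.054 against untreated cells (adjusted p = 0.116). Its 3 probesets differed, at -0.037, -0.27 and -0.34, and for the first of them Dox lay above untreated by 0.13 in experiment 2. Scap, the SREBP escort, had -0.033, with 0 on both treated arrays of experiment 1.

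Of the 11 fatty acid genes, a desaturase and an acyl-CoA synthetase fell in Dox+4μ8c cells against untreated cells. The unadjusted p was under 0.05 for 6 genes, all lower, with backgrounds of 9.15% lower and 6.27% higher over all genes. Fads2, the Δ6 desaturase of polyunsaturated fatty acids, had the largest change of all members in this comparison, by a small margin over Idi1. Its values were -0.16 and -0.33 in Dox+4μ8c cells, 0 and 0.10 in Dox cells and 0.20 and 0.31 in untreated cells, in the same order of groups in both experiments, and it fell by 0.50 ± 0.078 with Dox+4μ8c (adjusted p = 0.0366, limma). The changes of Fads2 for Dox+4μ8c against Dox (-0.30 ± 0.078) and for Dox against untreated (-0.20 ± 0.078) did not pass the test (adjusted p = 0.179 and 0.225). Acsl3, an acyl-CoA synthetase of the ER and lipid droplets, stood at -0.24 and -0.29 in Dox+4μ8c cells, 0 and 0.048 in Dox cells and 0.22 and 0.074 in untreated cells. Dox+4μ8c was lowest in each experiment, and Dox differed from untreated by -0.22 and -0.026 in experiments 1 and 2. Acsl3 fell by 0.41 ± 0.059 against untreated cells (adjusted p = 0.03), and its change against Dox was -0.29 ± 0.059 (adjusted p = 0.092). The other long-chain synthetase listed, Acsl4, had -0.059 against untreated cells.

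Scd2, a Δ9 desaturase that makes monounsaturated fatty acids, was at -0.15 and -0.24 in Dox+4μ8c cells, 0.064 and -0.092 in Dox cells and 0.068 and 0.30 in untreated cells. Dox+4μ8c was again lowest in each experiment, and Dox differed from untreated by -0.0048 and -0.40 in experiments 1 and 2. Its change of -0.38 ± 0.095 missed the threshold (adjusted p = 0.116), and its 4 probesets gave -0.63, -0.44, -0.48 and 0.016. Fasn, the fatty acid synthase, had -0.13 and -0.21 in Dox+4μ8c cells, 0 and 0.15 in Dox cells and 0.077 and 0.21 in untreated cells, again with Dox+4μ8c lowest in each experiment, and a change of -0.31 ± 0.070 against untreated cells (adjusted p = 0.0877). The elongase Elovl6 and the Δ5 desaturase Fads1 had -0.27 ± 0.063 and -0.34 ± 0.070, with adjusted p of 0.0981 and 0.0756 (limma). By contrast Acaca, the carboxylase that makes malonyl-CoA, had -0.0025, Acly, which makes cytosolic acetyl-CoA, had -0.088, and the elongases Elovl1 and Elovl5 had -0.10 and 0.0022. None of these 4 passed the test.

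Of the 7 phospholipid genes, 2 were lower in both experiments in Dox+4μ8c cells against untreated cells and 3 were higher in both, where 28.9% and 23.9% of all genes were, so that the share of lower genes was near the background. None passed the test in any comparison (limma). At an unadjusted p under 0.05, 2 were lower and 1 was higher with Dox+4μ8c against untreated, with backgrounds of 9.15% and 6.27%. Cept1, the last enzyme of phosphatidylcholine and phosphatidylethanolamine synthesis, was at 0.0012 and 0.032 in Dox+4μ8c cells, 0 and 0.066 in Dox cells and -0.13 and -0.16 in untreated cells. Untreated was lowest in each experiment and the treated groups differed by 0.0012 and -0.034, with changes of 0.16 ± 0.049 for Dox+4μ8c and 0.18 ± 0.049 for Dox, each against untreated cells (adjusted p = 0.182 and 0.101). Ptdss1, a phosphatidylserine synthase, had 0 and 0.0025 in Dox+4μ8c cells, 0.0052 and 0.15 in Dox cells and -0.11 and -0.0025 in untreated cells, with both Dox arrays the highest of their experiment and a change of 0.13 ± 0.054 for Dox against untreated (adjusted p = 0.246). Its sister enzyme Ptdss2 had 0.081 with Dox+4μ8c against untreated.

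The 2 phospholipid genes that were lower in both experiments were Lpin1 and Pcyt1a. Lpin1, the phosphatidate phosphatase that yields diacylglycerol, had -0.078 and -0.084 in Dox+4μ8c cells, 0 and 0.11 in Dox cells and 0.019 and 0.11 in untreated cells, so that Dox+4μ8c was lowest in each experiment while Dox differed from untreated by -0.019 and -0.0034. The changes were -0.15 ± 0.052 against untreated cells and -0.13 ± 0.052 against Dox cells (adjusted p = 0.244 and 0.4, limma). The 2 Lpin1 probesets differed for Dox against untreated in experiment 2, at 0.16 and -0.17. Pcyt1a, the rate-limiting enzyme of phosphatidylcholine synthesis, was at -0.13 and -0.029 in Dox+4μ8c cells, -0.0057 and 0.050 in Dox cells and 0 and 0.12 in untreated cells, with -0.14 ± 0.047 against untreated cells (adjusted p = 0.219) and probesets at -0.30 and 0.019. Its ethanolamine counterpart Pcyt2 had 0.032, and the choline kinase Chka had -0.037. The set of 7 was small, and leaving out the Dox+4μ8c array of experiment 1 turned its median for Dox+4μ8c against untreated to -0.055. Whether the phospholipid group differs from the others was not tested.

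Read across the 3 groups, 20 of the 40 members (50%) ran in 1 order in both experiments, lowest with Dox+4μ8c, intermediate with Dox and highest in untreated cells, against 4.72% of all genes. They were 9 of 16 sterol enzymes, 3 of 6 sterol regulators, 6 of 11 fatty acid genes and 2 of 7 phospholipid genes. No minimum step was required, and some steps from untreated to Dox were near 0. Examples are -0.003 for Cyp51 and -0.0048 for Scd2 in experiment 1, and -0.0034 for Lpin1 in experiment 2. The Scd2 probesets ran from -0.20 to 0.25 for that step. Of the 5 genes that fell against untreated cells, Idi1, Tm7sf2, Fads2 and Acsl3 had this order and Ebp did not. Within experiment 1 alone 21 members had it (52.5%, against 10.3% of all genes), and within experiment 2, whose Dox array had the widest spread, 26 had it (65%, against 16.2%). The equal values of experiment 1 bear on such counts, since 3439 of 12603 genes, and 3 of the members, had the same value in Dox+4μ8c and untreated cells there. Changes were also larger in experiment 2. The median over the sterol enzymes for Dox+4μ8c against untreated was -0.14 in experiment 1 and -0.37 in experiment 2, and over the fatty acid genes it was -0.21 and -0.30.

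A further 80 genes of lipid metabolism, outside the 42, were listed by name, also with earlier results of these data known, and 63 were measured. Of these, 18 of 63 (28.57%) were lower in both experiments in Dox+4μ8c cells against untreated cells, near the 28.9% of all genes. The median was -0.012. In this comparison 3 genes passed the test, with a background of 2.3% in either direction, and all 3 calls were lost with no block for the experiment, as were those of all genes. Acss2, which makes acetyl-CoA from acetate, was at -0.26 and -0.23 in Dox+4μ8c cells, 0 and 0.030 in Dox cells and 0.19 and 0.37 in untreated cells, in the same order as Tm7sf2 in both experiments, and fell by 0.52 ± 0.057 (adjusted p = 0.014, limma). Npc2, a lysosomal cholesterol carrier, had -0.14 and -0.086 in Dox+4μ8c cells, 0 and 0.083 in Dox cells and 0.28 and 0.18 in untreated cells and fell by 0.34 ± 0.061 (adjusted p = 0.0495), a call also lost under each other scaling, with plain probesets and with a robust prior (adjusted p from 0.0503 to 0.074). Cpt1a, the carnitine transferase that admits fatty acids to mitochondria for oxidation, ran the other way, at 0.13 and 0.22 in Dox+4μ8c cells, 0 and 0.032 in Dox cells and -0.38 and -0.31 in untreated cells. Untreated was lowest in each experiment, and it rose by 0.52 ± 0.047 with Dox+4μ8c and by 0.36 ± 0.047 with Dox (adjusted p = 0.00818 and 0.00954). Acat2, an acetyl-CoA thiolase at the head of the sterol route, had -0.46 with Dox+4μ8c and did not pass (adjusted p = 0.0888).

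With Dox against untreated, 4 of the 63 passed, namely Cpt1a, Tmem97, Agpat4 and Pcyt1b, a share near the background of 6.43% in either direction. The calls of Agpat4 and Pcyt1b were lost with no block for the experiment (adjusted p = 0.106 and 0.13). Tmem97, a sterol-responsive membrane protein, was at 0 and -0.10 in Dox+4μ8c cells, 0.38 and 0.40 in Dox cells and -0.0003 and 0.10 in untreated cells, with Dox highest in each experiment. It rose by 0.34 ± 0.062 with Dox (adjusted p = 0.03) and was the 1 gene of the 63 to differ between Dox+4μ8c and Dox, where the background was 1.79% and it fell by 0.44 ± 0.062 (adjusted p = 0.0294, limma). Agpat4, an acyltransferase of phospholipid synthesis, had 0.031 and 0.15 in Dox+4μ8c cells, 0 and 0.27 in Dox cells and -0.30 and -0.17 in untreated cells and rose by 0.37 ± 0.058 with Dox (adjusted p = 0.018). Untreated was lowest in each experiment, and Dox+4μ8c lay above Dox in experiment 1 and below it in experiment 2. Pcyt1b, an isoform of Pcyt1a in the same step, was at 0 and -0.059 in Dox+4μ8c cells, -0.044 and -0.15 in Dox cells and 0.27 and 0.059 in untreated cells and fell by 0.26 ± 0.055 with Dox (adjusted p = 0.0458). Leaving out either untreated array left 0 of the 63 past the test for Dox against untreated, leaving out either Dox+4μ8c array left 1, and leaving out the Dox array gave 7 for experiment 1, against 14% of all genes, and 2 for experiment 2, against 4.93%. For Dox+4μ8c against untreated, 0 were left without either untreated or either Dox+4μ8c array and 6 passed without either Dox array, against 5.65% of all genes. The Tmem97 call against Dox was lost without either Dox+4μ8c array, and 2 genes passed without the Dox array of experiment 1, against 7.18% of all genes.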

How the data were processed

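RNA of 6 cultures (200 ng of total RNA each, per the labels) was read on Affymetrix rat arrays. The deposited values are log2 signals that the authors made by RMA, with a level subtracted for each probeset. That level was set differently in the 2 experiments, and for experiment 2 it is not known from these arrays. Scanner files, software versions and detection calls were not used here, so arrays have no depth, and their number, 2 a group, limits the precision. Groups and replicate numbers came from the labels, and the study describes 2 independent experiments. That the same replicate number in each group marks the same experiment was assumed, since the labels do not say so.

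Of 25476 probesets, 17978 carried 1 symbol in the platform annotation, 7068 carried none and 378 several, and 52 controls were left out. Probesets of 1 gene were averaged, giving 12603 genes. All were fitted with limma 3.58.1 (R 4.3.3) on group and experiment, since the level subtracted was set differently in the 2 experiments. The test was two-sided, with Benjamini-Hochberg adjustment per comparison. The fit had 2 residual degrees of freedom. It was tested on simulated data with known changes for Dox against untreated only. The simulated noise was independent and alike on every array, without the equal values of experiment 1. How the fit performs with those features was therefore not tested. Listed genes were counted beside all genes, with no set test. Alternatives were no experiment block, other scalings, plain probesets, a robust prior, each array left out and, chosen after seeing the data, probesets equal on all arrays of experiment 1 left out. Promoters came from RefSeq (GRCr8), matched by symbol.

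All array values are given for members past the test, for Srebf1, Srebf2, Insig1, Sqle, Fasn and Pcyt1a, and for the 2 members of each group with the largest absolute change in each comparison. Scd2 is among these, and Scd was not measured. The members and lists were chosen with earlier results of these data known.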

Additional observations from a re-analysis of the deposited data

How the results depend on the processing

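No result changed direction past the test. With no replicate block for the experiment (limma), members lower numbered 0 for Dox+4μ8c against untreated, 1 for Dox+4μ8c against Dox and 1 for Dox against untreated, where Ebp was lost. Over all genes this fit gave 0 higher and 0 lower in the first comparison (825 and 1258 at an unadjusted p under 0.05), 14 and 129 in the second and 303 and 137 in the third, and 0 of the other lipid genes in the first and 2 in the third. The deviations of same-numbered arrays correlated at 0.031 to 0.1 over genes. The centring removes offsets that such arrays share, so these correlations cannot show whether the numbers pair. Quantile normalization left 3 members lower for Dox+4μ8c against untreated and 0 in the other comparisons, with 92 genes lower in the first, 0 higher and 0 lower against Dox, and 119 higher and 44 lower for Dox against untreated. The other lipid genes then numbered 0 against Dox and 0 for Dox against untreated, the median of the phospholipid genes was 0.056 for Dox+4μ8c against untreated, and that of the sterol regulators was -0.060 for Dox. Centring each array on its median left 0 members lower against Dox, with medians of -0.14 for fatty acid genes there and -0.069 for sterol regulators for Dox against untreated. Plain probesets alone gave -0.12 and -0.041 for these 2 medians. Without probesets equal on all arrays of experiment 1, 5 other lipid genes passed for Dox+4μ8c against untreated.

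With each array left out in turn, members lower ranged from 0 to 17 for Dox+4μ8c against untreated, from 0 to 2 against Dox and from 0 to 4 for Dox against untreated. Over all genes in the same order, 8 to 318 were higher and 2 to 394 lower, 0 to 325 higher and 0 to 580 lower, and 177 to 1104 higher and 61 to 655 lower. Other lipid genes past the test ranged from 0 to 6, from 0 to 2 and from 0 to 7. Medians for Dox+4μ8c against untreated ranged from -0.34 to -0.20 for fatty acid genes and from -0.055 to 0.032 for phospholipid genes, and those against Dox from -0.18 to -0.067 for fatty acid genes, from -0.21 to -0.035 for sterol enzymes, from -0.14 to -0.056 for sterol regulators and from -0.11 to -0.022 for phospholipid genes. For Dox against untreated they ranged from -0.15 to -0.020 for sterol enzymes, from -0.059 to -0.016 for sterol regulators and from -0.12 to -0.017 for fatty acid genes. Where an arm kept 1 array, it was assumed to vary like the other groups. The cause of these changes was not tested, beyond the loss of samples. A filter on dim probes and another background correction were not run, because centred values hold no signal level. With no level and no background signal, a member below detection cannot be told apart from one that did not change.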
